A study of Mus musculus with 8 samples.

Results

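Matrix metalloproteinases and their tissue inhibitors were followed in molars of mice with and without Wdr72. The set was chosen by gene name, with earlier results of these data known. It held 8 of the 54532 genes of the deposited count table: the proteases Mmp2, Mmp11, Mmp13, Mmp14 and Mmp16, and the inhibitors Timp1, Timp2 and Timp3. All 8 passed the filter on low counts, which left 16205 genes. The samples were first molars of C57BL/6 mouse pups, dissected free of pulp and homogenised whole, and the labels call the cells epithelially derived ameloblasts, the cells that form enamel. The pups were 12 days old by the age label and 13 by the dissection protocol. The study compared 4 libraries from wild-type pups (WT 2, 3, 4 and 5) with 4 libraries from Wdr72-/- pups (KO 1, 3, 4 and 5), a colony purchased from a mouse repository. The deleted part of Wdr72 and the number of pups per library are not in the labels, so p-values cover the spread among these libraries only, which may be technical.

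Metalloproteinases are zinc enzymes that cut collagens and other matrix proteins outside the cell. They are made as inactive precursors, are switched on by removal of a propeptide, and are blocked by the TIMPs, each of which binds the active site of an enzyme. MMP14 sits in the plasma membrane and, together with TIMP2, forms the complex that activates MMP2 at the cell surface. In teeth and jaws these enzymes are known from tissues that include the follicle, periodontal tissue and bone around the tooth. Enamel matrix is cut by MMP20 and KLK4.

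The libraries held 17084475 to 21887462 counted reads. Wdr72, the targeted gene, was at 173, 245, 327 and 227 CPM (the gene's share of the library's reads after TMM scaling) in WT 2 to 5 and at 102, 37.8, 24.9 and 15.8 CPM in KO 1, 3, 4 and 5. Every KO library thus lay below every WT library, and KO 1 kept the most Wdr72 reads (log2 fold change -2.43, SE 0.47, adjusted p = 0.080 in edgeR). KO 5 was the library least like the others: its correlation with them across genes averaged 0.965, and that of the 7 remaining libraries 0.980 to 0.983. Genes that define ameloblasts, 7 of 7 of them tested, summed to 52515 to 96349 CPM in WT and 58838 to 80498 CPM in KO, so the labelled cell type was present in each library. Markers of connective tissue were present too. The 12 mesenchyme markers, none of them at 0, summed to 3167 to 5057 CPM in WT and 4862 to 7089 CPM in KO.

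By edgeR's quasi-likelihood test 0 of the 8 genes passed an adjusted p of 0.05 over all genes tested, a threshold that 5 of 16205 genes (0.0309%) passed. At an unadjusted p of 0.05, 5 of the 8 were higher in KO: Timp2, Mmp2, Mmp13, Mmp14 and Timp1. Of all genes tested 8.70% were higher in KO at that unadjusted threshold. These 5 were found with any 1 library left out as well, and without both KO 1, which kept Wdr72 reads, and KO 5 there were 4, as Mmp2 no longer passed (6.55% of the genes tested in that fit). In 2 of the 8, Timp2 and Mmp14, each KO library lay above each WT library, against 5.50% of all genes tested. The median log2 fold change (KO minus WT) was 0.44 for the 8 genes and 0.021 for all genes tested. As the 8 genes were chosen with earlier results of these data known, these comparisons are no test of the set. DESeq2 called 3 of the 8 at an adjusted p of 0.05 (Timp2, Mmp2 and Mmp13), where it called 1.83% of all genes as higher in KO. Limma voom with quality weights called 2 (Timp2 and Mmp2), where it called 4.34% as higher. With no low-count filter edgeR called 3 (Timp2, Mmp2 and Mmp13), and 0.565% of all genes as higher.

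**Figure D1:**
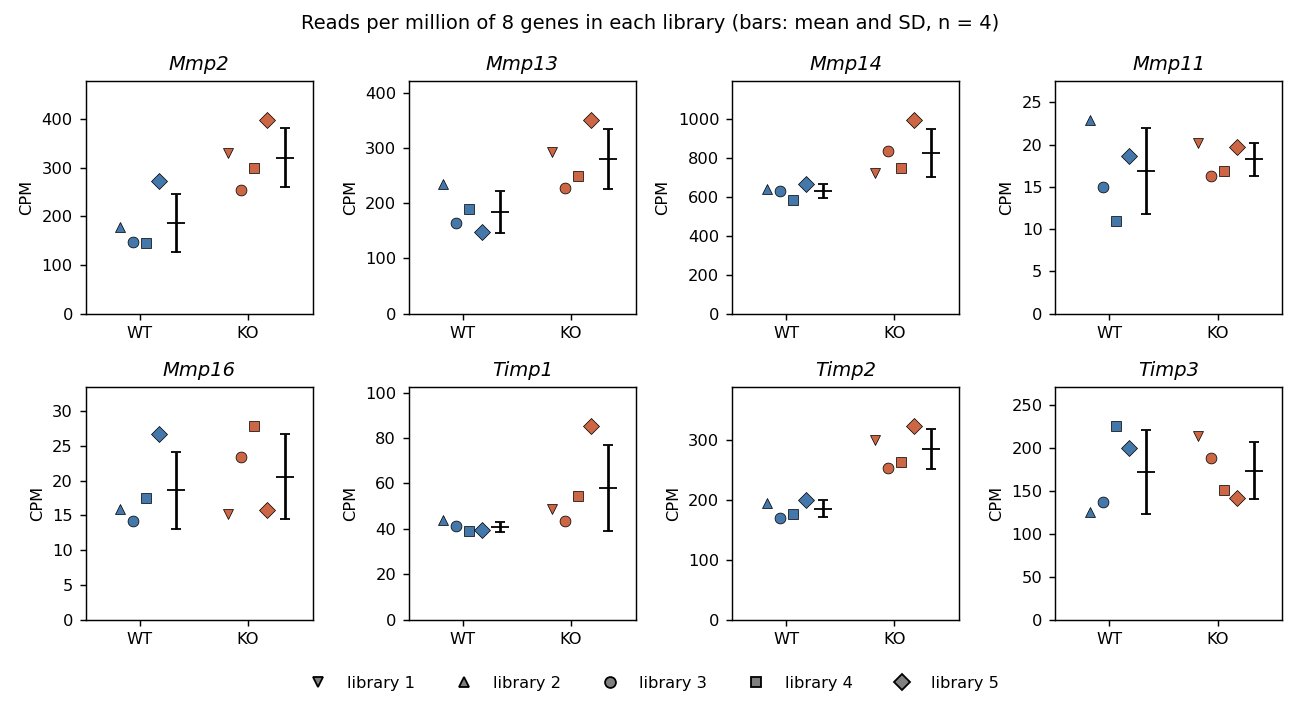
CPM of the 8 genes in each library (symbols give the library number) with the mean and SD of each group beside the points, n = 4. Timp2 and Mmp14 have no overlap between WT and KO, in Mmp2, Mmp13 and Timp1 1 WT library reaches above the lowest KO library, and Timp3, Mmp11 and Mmp16 overlap widely.

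Of the secreted proteases, Mmp2 differed most. Mmp2 encodes gelatinase A, which cuts denatured collagen and basement membrane collagen (ENSMUSG00000031740, chromosome 8, 92827291 to 92853420, GRCm38, plus strand). Its level was 178, 148, 145 and 273 CPM in WT 2 to 5 and 329.8, 254, 300.3 and 398 CPM in KO 1, 3, 4 and 5. WT 5 was the highest WT library and lay above KO 3, while the other 3 WT libraries lay below all KO libraries. The group means were 186 ± 59.8 and 321 ± 60.5 CPM (SD, n = 4 each). The difference was 1.72-fold (log2 fold change 0.78, SE 0.21, adjusted p = 0.15 in edgeR). With 1 library left out it ran on the log2 scale from 0.66 without KO 5 (adjusted p = 0.23) to 1.03 without WT 5 (adjusted p = 0.059), and without both KO 1 and KO 5 it was 0.57 (adjusted p = 0.48).

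Mmp13 encodes collagenase 3, which cleaves fibrillar collagen and is made in quantity by osteoblasts and hypertrophic chondrocytes (ENSMUSG00000050578, chromosome 9, 7272514 to 7283331, plus strand). It was at 234, 165, 189.7 and 147 CPM in WT 2 to 5 and at 292, 227, 249 and 351 CPM in KO 1, 3, 4 and 5. Only WT 2 reached into the KO range, just above KO 3. The means were 184 ± 37.8 and 279.9 ± 54.7 CPM, a 1.52-fold difference (log2 fold change 0.61, SE 0.17, adjusted p = 0.17). Without KO 1 and KO 5 the log2 fold change of Mmp13 was 0.37 (adjusted p = 0.42). Mmp13 lies on the same chromosome as Wdr72, which spans 74110356 to 74283308.

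Mmp11 encodes stromelysin 3, a protease that is activated inside the cell by furin (ENSMUSG00000000901, chromosome 10, 75923222 to 75936496, minus strand). It was low, at 11.0 to 22.9 CPM in WT and 16.2 to 20.2 CPM in KO, and the highest and the lowest library were both WT. The log2 fold change was 0.11 (SE 0.20, adjusted p = 0.80), and without WT 4 it was -0.053. Chchd10 overlaps Mmp11 on the opposite strand and had 292% as many reads, with a log2 fold change of 0.58. Whether the counting used strand is not stated, so the count of Mmp11 is uncertain.

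Of the membrane-bound proteases, Mmp14 was by far the more abundant. Mmp14 encodes MT1-MMP, which cleaves fibrillar collagen around the cell and activates the MMP2 precursor (ENSMUSG00000000957, chromosome 14, 54431612 to 54445364, plus strand). It was at 643, 629, 583 and 666 CPM in WT 2 to 5 and at 720.4, 835, 746 and 996 CPM in KO 1, 3, 4 and 5. The groups did not overlap, and KO 5 was the highest library. The means were 630.2 ± 34.9 and 824 ± 125 CPM, a 1.31-fold difference (log2 fold change 0.39, SE 0.14, adjusted p = 0.23). Without KO 5 the log2 fold change was 0.28 (adjusted p = 0.21).

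Mmp16 encodes MT3-MMP, a second membrane-type protease (ENSMUSG00000028226, chromosome 4, 17852893 to 18119145, plus strand). It was at 15.9, 14.2, 17.6 and 26.7 CPM in WT 2 to 5 and at 15.3, 23.4, 27.9 and 15.8 CPM in KO 1, 3, 4 and 5. High and low libraries occurred in both groups. The log2 fold change was 0.15 (SE 0.23, adjusted p = 0.77), and without KO 4 it was -0.033.

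Among the inhibitors Timp2 had the smallest p of the 8 genes. TIMP2 blocks most metalloproteinases and also bridges MMP14 to the MMP2 precursor (ENSMUSG00000017466, chromosome 11, 118301069 to 118355740, minus strand). It was at 196, 169.9, 176 and 200.4 CPM in WT 2 to 5 and at 300.4, 252, 264 and 323 CPM in KO 1, 3, 4 and 5. Each KO library lay above each WT library, and the gap between the highest WT and the lowest KO library was wider than the spread within WT. The means were 185 ± 14.8 and 285 ± 32.7 CPM, a 1.54-fold difference (log2 fold change 0.62, SE 0.12, adjusted p = 0.080). Without KO 5 the log2 fold change was 0.55 and the adjusted p 0.040, so that Timp2 passed the threshold there, as did 0.212% of the genes tested in that fit as higher in KO. Cep295nl, which overlaps Timp2 on the same strand, had 0.18% as many reads.

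Timp1 encodes an inhibitor of secreted metalloproteinases that is induced in many connective tissue cells (ENSMUSG00000001131, chromosome X, 20870166 to 20874735, plus strand). It was at 43.8, 41.4, 39.02 and 39.5 CPM in WT 2 to 5 and at 48.6, 43.4, 54.4 and 85.3 CPM in KO 1, 3, 4 and 5. The WT libraries were close together, KO 3 lay just under the highest of them, and KO 5 was far above the rest. The means were 40.9 ± 2.17 and 57.9 ± 18.8 CPM (log2 fold change 0.50, SE 0.18, adjusted p = 0.24). Without KO 5 the log2 fold change of Timp1 was 0.25 (adjusted p = 0.24). Timp1 lies within Syn1, on the other strand, which had 5.58% as many reads.

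Timp3 encodes the inhibitor that binds to the matrix and also blocks ADAM proteases (ENSMUSG00000020044, chromosome 10, 86300372 to 86349506, plus strand). It was at 125, 138, 226 and 200.6 CPM in WT 2 to 5 and at 214, 188, 152 and 142 CPM in KO 1, 3, 4 and 5. The KO range lay inside the WT range. The means were 173 ± 48.6 and 174 ± 33.7 CPM (log2 fold change 0.013, SE 0.20, adjusted p = 0.98). Syn3 overlaps Timp3 on the other strand and had 0.56% as many reads.

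**Figure D2:**
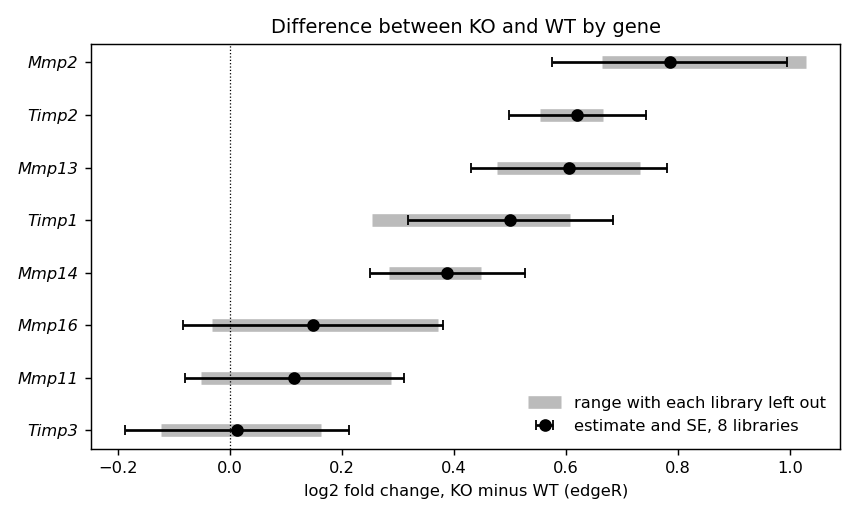
Log2 fold change, KO minus WT, of the 8 genes with its SE (points and bars, 8 libraries) and the range when each library is left out in turn (grey). The ranges of Mmp2, Timp2, Mmp13, Timp1 and Mmp14 stay above 0, and those of Mmp16, Mmp11 and Timp3 cross 0.

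Upstream sequences are shown for 3 of the 5 genes that were higher in KO at an unadjusted p of 0.05, because in these the 250 bases before the RefSeq start held no annotated exon. RefSeq sequences (GRCm38.p6) matched 6 of the 8 genes, all but Mmp2 and Mmp16. Capitals mark matches on either strand to motifs chosen from textbook knowledge after the sequences had been seen. The motif of AP-1 was searched as TGANTCA. That of the RUNX factors was searched as AACCACA. The ETS motif was AGGAAGT, the GC box was GGGCGG, and the TATA box was searched as TATAAA. Each sequence runs 5′ to 3′ on the strand of its gene.
Mmp13 (chr9:7272264-7272513, plus strand): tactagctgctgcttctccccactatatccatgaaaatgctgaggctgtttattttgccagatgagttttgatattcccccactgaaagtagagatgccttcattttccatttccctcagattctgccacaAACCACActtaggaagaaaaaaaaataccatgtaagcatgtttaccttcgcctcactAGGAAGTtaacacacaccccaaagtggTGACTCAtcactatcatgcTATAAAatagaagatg
Mmp14 (chr14:54431348-54431597, plus strand): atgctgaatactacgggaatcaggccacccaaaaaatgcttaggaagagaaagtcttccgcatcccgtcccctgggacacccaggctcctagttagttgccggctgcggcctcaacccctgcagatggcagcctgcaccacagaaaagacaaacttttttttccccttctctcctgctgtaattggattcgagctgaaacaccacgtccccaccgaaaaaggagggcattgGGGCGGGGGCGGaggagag
Timp1 (chrX:20869916-20870165, plus strand): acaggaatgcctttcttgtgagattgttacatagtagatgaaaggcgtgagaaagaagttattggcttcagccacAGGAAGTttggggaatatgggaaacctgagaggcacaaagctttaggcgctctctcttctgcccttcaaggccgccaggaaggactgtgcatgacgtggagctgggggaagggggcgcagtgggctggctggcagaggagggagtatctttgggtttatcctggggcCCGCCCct

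The Mmp13 sequence held the RUNX letters beginning at position -119 from the start, the ETS letters at -62, the AP-1 letters at -35 and the TATA letters at -16. No 2 of these matches overlapped. None of the other 5 windows held the AP-1, RUNX or TATA letters. Timp1 held the ETS letters at -175 and a GC box on the reverse strand at -8. Mmp14 held a pair of adjoining GC boxes at -19 and -13, and Timp2, Timp3 and Mmp11 held GC boxes too. Of 32851 mouse windows of 250 bases, 6.75% held the AP-1 letters, 4.40% the RUNX letters, 7.69% the ETS letters, 32.7% a GC box and 12.4% the TATA letters. A match describes letters only and is not evidence of a bound site.

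Levels of different genes were compared per length, as FPKM (CPM per kilobase of the gene length in the deposited table). In WT the order was Mmp14 (106 ± 5.85 FPKM), Mmp13 (68.8 ± 14.1), Mmp2 (55.2 ± 17.7), Timp2 (47.6 ± 3.80), Timp1 (46.1 ± 2.44), Timp3 (21.2 ± 5.96), Mmp11 (6.08 ± 1.83) and Mmp16 (2.15 ± 0.641 FPKM; SD, n = 4). Neighbours whose WT ranges overlapped were Mmp13 and Mmp2, Mmp2 and Timp2, and Timp2 and Timp1. Mmp14 lay above Mmp13, and Timp1 above Timp3, in all 4 WT libraries without overlap. In KO the order was the same, from 138 ± 20.9 FPKM for Mmp14 to 2.37 ± 0.706 FPKM for Mmp16, and there the ranges of Mmp14 and Mmp13 overlapped as well. Timp1 has a short transcript, so that it ranked beside Timp2 in FPKM although its read count was lower (699 to 1641 reads against 3531 to 6217).

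**Figure D3:**
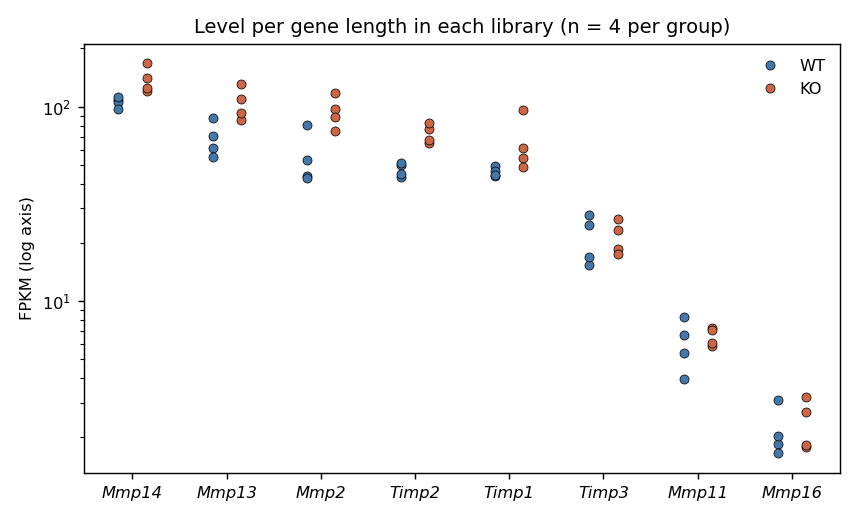
FPKM of each gene in the 4 WT and 4 KO libraries, on a log axis, ordered by the WT mean. The 5 genes from Mmp14 to Timp1 lie above Timp3, and Mmp11 and Mmp16 lie lowest in both groups.

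Protease and inhibitor levels were also set against each other within each library, in FPKM and with no test. The summed level of the 5 proteases was 258.5, 217.9, 218 and 258 FPKM in WT 2 to 5 and 337, 309, 317 and 426 FPKM in KO 1, 3, 4 and 5. That of the 3 inhibitors was 115, 107, 117 and 121 FPKM in WT and 158, 137, 148 and 196 FPKM in KO. The ratio of the sums was 2.07 ± 0.164 in WT and 2.18 ± 0.0580 in KO, and the ranges overlapped (1.87 to 2.25 and 2.13 to 2.26). Mmp2 to Timp2 was 1.15 ± 0.288 in WT and 1.29 ± 0.108 in KO, again with overlap. Mmp14 to Timp2 was 2.15 to 2.42 in WT and 1.57 to 2.16 in KO, where only KO 3 reached the WT range. Mmp13 to Mmp2 was 1.66, 1.41 and 1.64 in WT 2, 3 and 4, 0.681 in WT 5, and 1.04 to 1.13 in the KO libraries. WT 5 thus held the highest Mmp2 and the lowest Mmp13 of the WT libraries.

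The spread within a group differed between the genes. In WT the coefficient of variation was 5.30% for Timp1, 5.53% for Mmp14 and 7.99% for Timp2, below the median of 12.4% over all genes tested. It was 20.5% for Mmp13 and 28.1% to 32.2% for Timp3, Mmp16, Mmp11 and Mmp2. In KO that of Timp1 was 32.5%, above the median of 18.3%, and that of Timp2 was 11.5%. KO 5 was the highest of all 8 libraries for 5 genes (Mmp2, Mmp13, Mmp14, Timp1 and Timp2), and WT 4 was the lowest for 4.

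Genes of the same protease systems were read from the same fit as counts. Over these pathway lists 89 genes were tested, and 0 of them passed an adjusted p of 0.05 in edgeR, while an unadjusted p of 0.05 was passed by 29 as higher and by 2 as lower. DESeq2 called 13 higher and 2 lower, and voom with quality weights 30 higher and 2 lower. Of all genes tested 8.70% were higher at the unadjusted p in edgeR, and DESeq2 called 1.83% and voom 4.34% as higher. Of 18 other metalloproteinases 10 were tested, and their log2 fold changes had a median of -0.11. At an unadjusted p of 0.05, 1 lay higher and 1 lower. The lower one was Mmp12, macrophage elastase, with 12.7 ± 3.91 CPM in WT against 6.96 ± 1.51 CPM in KO (log2 fold change -0.87, adjusted p = 0.15). The higher one was Mmp9, the gelatinase of osteoclasts and neutrophils and one of the osteoclast markers below, at 68.8 ± 23.8 and 114 ± 25.03 CPM (adjusted p = 0.21). Mmp1b and Mmp7 had no read in any library. Mmp23 had the next smallest p, at 63.0 ± 2.39 and 75.3 ± 11.8 CPM.

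Of 14 tested inhibitors, activators and clearance factors, 6 lay higher and 0 lower at that unadjusted threshold, with a median log2 fold change of 0.45. Those with the smallest p were Pcsk6, a proprotein convertase, at 39.7 ± 3.82 and 53.4 ± 0.646 CPM, and the thrombospondins Thbs1, at 206 ± 13.9 and 294 ± 36.3 CPM, and Thbs2, at 103 ± 23.8 and 144 ± 9.51 CPM. Timp4, the remaining TIMP, had too few reads to be tested. Of 28 ADAM, ADAMTS and tolloid proteases 8 were higher and 0 lower (median 0.27). They were led by the aggrecanase Adamts4, at 12.3 ± 0.995 and 18.9 ± 1.89 CPM (adjusted p = 0.080), with Adamts1 and Adam15 next (log2 fold changes 0.48 and 0.43).

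Of 10 tested genes of the plasminogen system, which activates several metalloproteinase precursors, 1 was higher and 1 lower (median 0.027). Serpine2, protease nexin 1, was at 99.0 ± 7.12 and 149 ± 27.3 CPM. Serpinb2, plasminogen activator inhibitor 2, was at 3.46 ± 1.71 and 0.966 ± 0.333 CPM, and Plau, the urokinase activator, at 14.3 ± 2.83 and 11.9 ± 0.627 CPM. Without KO 1 and KO 5 the median of the plasminogen list was -0.11.

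The next list shares Col3a1 and Col6a1 with the mesenchyme markers below, and Col2a1, Acan and Col10a1 with the cartilage markers. Of the 16 matrix proteins that these enzymes cut, 11 lay higher and 0 lower at the unadjusted threshold, with a median log2 fold change of 0.60. Col6a2 was at 109 ± 14.8 and 203 ± 39.2 CPM (adjusted p = 0.073), Col6a1 at 129 ± 20.8 and 229 ± 42.3 CPM and Eln, elastin, at 41.6 ± 5.79 and 78.1 ± 24.9 CPM. Of 11 AP-1, RUNX and ETS factor genes, 2 were higher and 0 lower (median 0.26). Runx2 and Sp7 of this list are also osteoblast markers, and the osteoblast and odontoblast markers share Dmp1 and Phex. Ets2 was at 79.6 ± 2.83 and 95.2 ± 2.32 CPM, Jund at 91.4 ± 4.82 and 137 ± 55.2 CPM and Junb at 91.4 ± 15.9 and 135 ± 64.7 CPM, where KO 5 held 219 and 232 CPM of the latter pair. In each list the share higher at an unadjusted p of 0.05 can be set against 8.70% of all genes tested. The share in either direction can be set against 15.7%.

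Marker lists of the cells that could carry these genes were read in the same way, and edgeR called 0 genes of the mesenchyme, osteoblast, cartilage, osteoclast, macrophage, endothelial and mural, Schwann cell and ameloblast lists at an adjusted p of 0.05. In bulk RNA a larger number of cells of one type and more RNA per cell cannot be told apart. Of all genes tested 8.70% were higher in KO at an unadjusted p of 0.05, and 5.50% were higher without overlap. Of the 12 mesenchyme markers 10 were higher in KO, 8 at an unadjusted p of 0.05, and the summed level was 4350, 3312, 3167 and 5057 CPM in WT 2 to 5 and 6630, 4862, 5957 and 7089 CPM in KO 1, 3, 4 and 5. Among the WT libraries WT 5 was thus the highest in both mesenchyme markers and Mmp2, and KO 5 was the highest of all in both. Of 9 tested osteoblast markers 7 were higher, 4 at an unadjusted p of 0.05, with summed levels of 3979 to 5102 CPM in WT and 4915 to 7082 CPM in KO.

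The 8 osteoclast markers, 7 of them tested and all 7 higher in KO (1 at an unadjusted p of 0.05), summed to 436, 308, 311 and 182 CPM in WT 2 to 5 and to 471, 378, 343 and 655 CPM in KO 1, 3, 4 and 5. WT 5 was lowest and KO 5 highest, the libraries that were also lowest and highest in Mmp13. For the summed osteoblast and cartilage markers, by contrast, WT 5 was the highest WT library (5102 and 1373 CPM). KO 5 was the highest of all for the osteoblast sum (7082 CPM) and the lowest KO library for the cartilage sum (934 CPM). Single cartilage markers differed from that sum. Col2a1 was lowest in WT 5 (14.9 CPM) and highest in KO 5 (64.5 CPM). Col9a2 was the highest of WT in WT 5 (27.8 CPM) and the highest of all in KO 5 (71.6 CPM). Of the 9 macrophage markers 8 were higher in KO, 5 at an unadjusted p of 0.05, and they summed to 228 to 253 CPM in WT and 269 to 356 CPM in KO. Of 8 tested cartilage markers 7 were higher in KO (median log2 fold change 0.36). At an unadjusted p of 0.05 there were 4, against 8.70% of all genes tested. Without overlap between the groups there were 3, against 5.50%. The cartilage sums overlapped, at 705 to 1373 CPM in WT and 934 to 1392 CPM in KO. The main cartilage collagen, Col2a1, had 21.1 ± 5.85 CPM in WT against 46.8 ± 16.4 in KO, and for Col9a2 the means were 24.3 ± 2.82 and 46.6 ± 17.1 CPM (adjusted p = 0.10 each in edgeR). The sums of the odontoblast markers overlapped (11614 to 23718 and 9890 to 20410 CPM), as did those of the endothelial and mural markers (705 to 760 and 684 to 753 CPM), of which 3 passed the unadjusted threshold as higher and 1 as lower. Of the 5 odontoblast markers only 2 were higher in KO (median log2 fold change -0.034). In edgeR 1 of the 5, Smpd3, passed an adjusted p of 0.05, against 0.0309% of all genes tested in either direction. Smpd3, a sphingomyelinase of mineralising cells, was at 40.3 ± 3.78 and 67.04 ± 2.85 CPM (log2 fold change 0.73, adjusted p = 0.040). It did not pass without WT 2, WT 3, WT 5, KO 1, KO 3 or KO 4. All 5 Schwann cell markers were higher in KO, 3 at an unadjusted p of 0.05 and 3 without overlap (median log2 fold change 0.65), and their sums, at 45.2 to 65.9 and 65.0 to 91.2 CPM, overlapped by a small margin. Keratinocyte markers went the other way, at 671 to 1289 CPM in WT and 540 to 795 CPM in KO. In edgeR 2 of 9 passed an adjusted p of 0.05 as lower, against 0.0309% of all genes tested in either direction. Spink5, a protease inhibitor of skin, was at 5.21 ± 1.40 and 1.03 ± 0.235 CPM, and the keratin Krt1 at 9.96 ± 6.02 and 1.598 ± 0.232 CPM. Spink5 did not pass without WT 2, WT 3, KO 3 or KO 4, and Krt1 passed only without WT 4 or WT 5. With all libraries the median log2 fold change was 0.38 for osteoblast, 0.39 for macrophage and 0.23 for endothelial and mural markers. Without KO 1 and KO 5 these medians were 0.20, 0.23 and 0.060. That of the keratinocyte markers was -1.35 with all libraries and -1.79 without KO 1 and KO 5. These shifts were larger than the within-group spread of each list's mean level, and those of the other marker lists were smaller. The part of these cell types in the levels of the 8 genes was not tested.

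**Figure D4:**
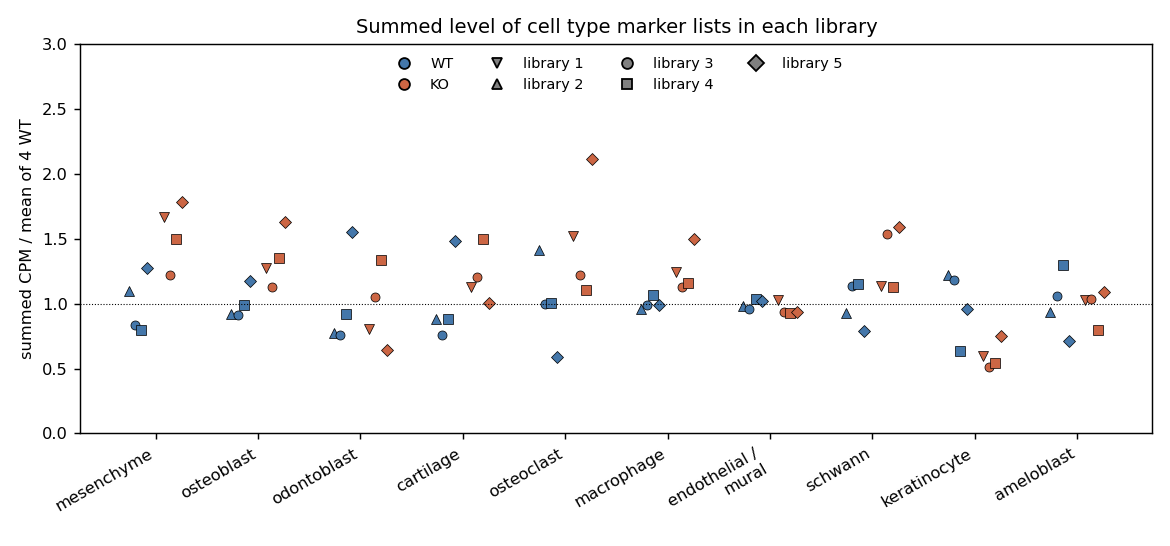
Summed CPM of each marker list in each library, divided by the mean of the 4 WT libraries (dotted line at 1). The macrophage lists of WT and KO do not overlap, the mesenchyme, osteoblast, osteoclast and Schwann cell lists lie higher in KO with overlap, the keratinocyte list lies lower in KO with overlap, and the ameloblast list overlaps widely.

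For each of the 8 genes the genes with the most similar pattern over the 8 libraries were taken, as the smallest root mean square difference of centred log2 CPM among 11172 protein-coding genes. Mmp2 was nearest to Aebp1 (0.087) and Lrrc17 (0.089), against a root mean square of 0.51 for Mmp2 about its own mean. Mmp13 was nearest to Eya2 (0.10) and Gsg1l (0.13), Mmp14 to Hmox1 (0.065) and Coq4 (0.069), and Timp2 to Elovl4 (0.078) and Selenon (0.079). Timp1 was nearest to Ubtd1 (0.040) and Ssr2 (0.061), and Timp3 to Tgfbr3 (0.083) and Cyp1b1 (0.12). Mmp16 was nearest to Sytl2 (0.063) and Jam2 (0.086), and Mmp11 to Tonsl (0.13) and Zfp446 (0.14). These are descriptions over 8 libraries, and within a library all genes share its depth and scaling. When values were centred within each group, 4 of the 16 genes were still among the nearest 2.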

How the data were processed

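PolyA-captured RNA was fragmented and reverse-transcribed (per the labels). The authors deposited raw counts, whole reads per Ensembl gene, in 8 libraries; gene lengths are theirs. CASAVA and mm39 are named in the submitters' processing notes; for the aligner, the counter and its strand setting, the sources used here give nothing. The table's gene positions are those of GRCm38: 98.8% of the 54409 IDs shared with GENCODE M21 had the same start, and all 8 genes the same start and end.

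Genes were filtered with filterByExpr (minimum count 10, minimum total 15), leaving 16205 of 54532. Depth was 17084475 to 21887462 reads, TMM factors 0.936 to 1.06, and the biological coefficient of variation 17.8%. The test of KO against WT was the quasi-likelihood test of edgeR 4.0.16 in R 4.3.3 (robust, two-sided, no covariate), with Benjamini-Hochberg adjustment over all genes; SE is the size of the log2 fold change over the square root of F. DESeq2 1.42.0, limma 3.58.1 (voom), other scalings, other filters, a replicate block and left-out libraries were alternatives. The code was tested on simulated data. The genes named are the 8 genes, Wdr72, overlapping genes, the up to 3 genes of smallest p of each pathway list (2 of each marker list, named here only where they passed or a library stood apart) and the 2 nearest in pattern with a mean of at least 5 CPM. The 8 genes and the lists were chosen with earlier results of these data known.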

Additional observations from a re-analysis of the deposited data

Results flagged for a closer look

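None of the 8 genes had a library far from the other 3 of its group by Dixon's test (16 groups of 4 libraries checked). Over 45 genes and 90 groups 8 values passed. A chance rate of about 1 in 20 groups holds for independent groups of unselected genes. Many of the 45 genes were taken for their small p, and all share the same 8 libraries, so that rate is no yardstick here. In KO 5 the values that passed were Jund at 219 CPM, Junb at 232 CPM, the mesenchyme marker Mfap4 at 54.0 CPM and the osteoblast marker Bglap2 at 1468 CPM, each the highest of its group. The others were Bglap at 1650.1 CPM in WT 5, Smpd3 at 62.8 CPM in KO 4 (the lowest KO library), Krt1 at 18.9 CPM in WT 4 and Enam at 326 CPM in WT 4.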

How the results depend on the processing

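Over 18 alternatives for each gene Mmp2, Mmp13, Mmp14, Timp1 and Timp2 kept a positive log2 fold change. With each library left out in turn, edgeR called 0 to 55 genes and 0 to 1 of the 8; 0 to 4 of the alternatives called any given one of them. DESeq2 called 464 genes and 3 of the 8, voom 1073 and 2, and no low-count filter 241 and 3 (adjusted p = 0.013 for Timp2, 0.041 for Mmp2 and 0.029 for Mmp13). Library totals called 2 genes, and leaving out KO 1 and KO 5 together 11. The replicate block on the shared numbers 3, 4 and 5 called 1 gene, as did the same 6 libraries with no replicate block. Neither called any of the 8. Deviations from the group mean in log2 CPM, across genes, correlated at -0.143, -0.0923 and -0.121 between same-numbered libraries. Pairs of unlike number ran from -0.235 to 0.274, so these values gave no sign of pairing by number.

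Signs turned for the genes near 0. With 1 library left out, log2 fold changes ran from -0.053 (without WT 4) to 0.29 for Mmp11, from -0.033 (without KO 4) to 0.37 for Mmp16 and from -0.12 (without WT 2) to 0.16 for Timp3, which was below 0 in 4 of these 8 fits. Mmp11 was at -0.026 without KO 1 and KO 5. Without KO 1 and KO 5 the log2 fold changes were 0.57 for Mmp2, 0.47 for Timp2, 0.37 for Mmp13, 0.32 for Mmp14 and 0.25 for Timp1, and 0.46 for Mmp16, against 0.15 with all libraries. Timp3 was at -0.025 with library totals, -0.21 with the replicate block, -0.23 in the same 6 libraries and -0.024 without KO 1 and KO 5. Voom gave 0.50 for Mmp16 and 0.21 for Timp3. The cause was not tested. Mmp11 and Mmp16 had the fewest reads of the 8 genes, 232 to 605 per library.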
